A study of Drosophila melanogaster with 14 samples.

Results

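Polyadenylated RNA of whole Drosophila melanogaster larvae carrying the allele Sep2[2] was compared with that of control larvae of the genotype W1118. The comparison took in 3 Sep2 mutant and 4 control libraries of the 14 libraries of the series, chosen by their labels, and 12586 of the 17869 genes in the table, those above 0 log2 CPM in at least 3 of the 14 libraries. The labels give whole larvae of the third instar in every group, and rearing at 25 °C with no treatment named. The remaining libraries, 3 of the Sep5[2] mutant and 4 of the double mutant Sep2[2] Sep5[2], entered the same fit and served to test whether a change in the Sep2 mutant differed from theirs. What the allele Sep2[2] removes, whether the single mutant larvae were homozygous, how many larvae went into a library and the genetic background of the mutant stock are not given in the sources used here. Nor is it said that libraries of a group came from separate cultures, so the p-values measure the spread between these libraries, which may be technical.

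Septins are GTP-binding proteins that assemble side by side into rods and filaments on membranes and along actin and microtubules, and were first known for their part in cytokinesis. In Drosophila, Septin2 and Septin5 are closely related and can take the same place in the rod, next to pnut and to Septin1 or Septin4. The title of the study links septin complexes to microtubules and to the working of the neuromuscular synapse. A whole larva of the third instar is made largely of body wall muscle, fat body, gut, salivary glands and cuticle, with the nervous system a small portion, so a change in bulk RNA can lie in the number of cells of a type or in RNA per cell, which cannot be told apart here.

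The Sep2 mutant libraries held 14750548 to 24555801 reads and the control libraries 18138648 to 34040709. Nuclear ribosomal RNA made up 1.38% to 2.62% of Sep2 mutant reads, against 0.435% to 1.18% of control reads, without overlap. The mitochondrial large ribosomal RNA made up 5.74% to 7.25% of Sep2 mutant reads and 4.74% to 9.83% of control reads. The part of these shares in the results below was not tested. The protocol text speaks of adult flies, so markers of both stages were read. Over 23 adult markers (yolk protein, chorion, opsin and the like) the summed level was 16.1 to 20.6 CPM in the Sep2 mutant and 16.4 to 30.4 CPM in the control, with Cp19 at 0 reads in the Sep2 mutant. Over 10 larval salivary glue genes it was 18312 to 21579 CPM in the Sep2 mutant and 4633 to 18825 CPM in the control.

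Septin2 (chromosome 3R, 20586129 to 20588356; positions are of BDGP6), the gene named by the mutation, was still transcribed in the Sep2 mutant. It stood at 21.7, 29.4 and 26.2 CPM in the Sep2 mutant libraries, against 59.1, 48.2, 46.6 and 67.2 CPM in the control libraries. CPM are counts scaled to a fixed library size. Every Sep2 mutant library lay under every control library, and the Sep2 mutant mean was 46.6% of the control mean. In the fit across all genes, which shares its estimate of spread over the 4 genotypes, the difference did not pass the threshold of 0.05 (log2 fold change -1.09, SE 0.76, adjusted p = 0.41). With the replicate number as a block the log2 fold change stood at -0.55, adjusted p = 0.58. It passed with sample weights (0.0229), with these 7 libraries alone (0.0121), without the double mutant libraries (0.0137) or with the replicate block over these 7 libraries alone (0.00552), range 0.00552 to 0.58. Values in parentheses after such settings are adjusted p, and the range gives the lowest and highest over the alternatives. The replicate block over these 7 libraries alone rests on the 3 same-numbered pairs, since control replicate 4 has no Sep2 mutant partner. Reads remaining from the gene say nothing about protein, since the labels do not state which part of it the allele affects.

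Of the other septins none was called. Septin5, the relative that can replace Septin2 in the rod, had 6.65, 8.01 and 6.18 CPM in the Sep2 mutant libraries, against 5.24, 3.58, 4.55 and 7.84 CPM in the control libraries (log2 fold change 0.43, SE 0.56, adjusted p = 0.67), and the ranges overlapped. Septin1, Septin4 and pnut also overlapped, at log2 fold changes of -0.15, -0.38 and -0.02 (adjusted p = 0.727, 0.289 and 0.96). The eye pigment transporter gene w, which is mutant in the control stock and a marker on many transgenes, had 0.665, 1.36 and 0.702 CPM in the Sep2 mutant libraries and 1.42, 2.002, 1.82 and 2.38 CPM in the control libraries (log2 fold change -1.05, SE 0.46, adjusted p = 0.207), each Sep2 mutant library lying under each control library. It was called with sample weights (0.0104) or with the replicate block over these 7 libraries alone (0.0474), range 0.0104 to 0.418. Against the Sep5 mutant w was lower in the Sep2 mutant (log2 difference -2.91, SE 0.49, adjusted p = 0.00491).

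**Figure D1:**
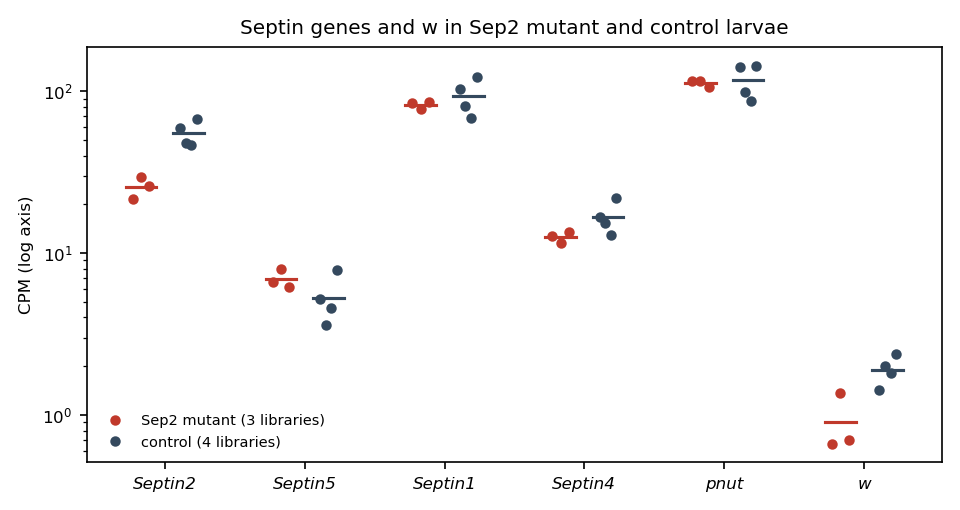
Level of the 5 septin genes and w in each library, in CPM on a log axis, with Sep2 mutant libraries left of control libraries; points are libraries and bars are group means. Septin2 and w are the genes in which all 3 Sep2 mutant points lie under all 4 control points.

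Across all genes, 566 of 12586 (4.50%) were called in the Sep2 mutant against the control at an adjusted p under 0.05 (limma, Benjamini-Hochberg), 410 higher (3.26%) and 156 lower (1.24%). Of the called genes 404 changed at least 2-fold, 276 higher and 128 lower. The median log2 fold change was 1.42 for the called higher genes and -1.71 for the called lower genes, against -0.02 over all genes tested. The number of calls rested strongly on how the spread was estimated: it was 2742 (1449 higher, 1293 lower) with the replicate block over these 7 libraries alone and 4091 (1886 higher, 2205 lower) with sample weights, but 528 with the replicate block over all 14 libraries. Leaving out 1 library gave 312 (without Sep2 mutant replicate 3) to 579 (without control replicate 3) calls, with 320 and 351 without Sep2 mutant replicates 1 and 2 and 351 and 343 without control replicates 1 and 2. Of the 566 genes, 236 were called in all 7 of these fits. In 564 of the 566 the Sep2 mutant libraries all lay on the same side of all the control libraries, and this holds for every called gene named here. Over all tested genes, 13.4% lay wholly higher and 7.49% wholly lower. Calls and overlap were read from the same libraries, so the 564 add no support to the calls. By arm, 48 of 1967 tested genes on X were called (2.44%), 105 of 2344 on 2L (4.48%), 128 of 2531 on 2R (5.06%), 120 of 2475 on 3L (4.85%) and 159 of 3099 on 3R (5.13%). Of 725 noncoding RNA genes 27 were higher and 37 lower, and of 11714 protein-coding genes 371 were higher and 116 lower.

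**Figure D2:**
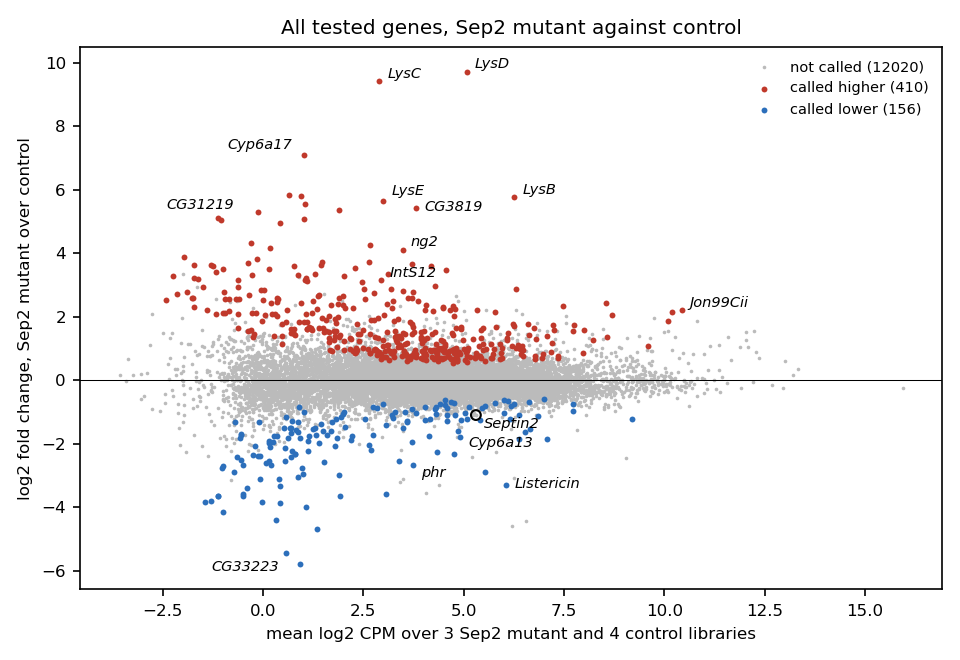
Log2 fold change of the Sep2 mutant over the control against the mean level over the 7 libraries for the 12586 tested genes; called higher genes (410) are red, called lower genes (156) blue and the others grey. The lysozyme genes LysD and LysC have the highest values, and Septin2 (circled) lies among genes that were not called.

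The highest log2 fold changes were those of LysD and LysC, of the family of digestive lysozymes, enzymes that cleave bacterial cell wall peptidoglycan. LysD (chromosome 3L, 1210717 to 1211196) stood at 1935, 915 and 2251 CPM in the Sep2 mutant libraries, against 1.39, 0.347, 1.21 and 15.2 CPM in the control libraries (log2 fold change 9.72, SE 0.83, adjusted p = 1.45e-05). The lowest Sep2 mutant library lay far above the highest control library, control replicate 4, which itself stood apart from the other 3. LysB had 944, 451 and 1003 CPM in the Sep2 mutant and 5.72, 10.6, 29.8 and 19.6 CPM in the control (log2 fold change 5.77, SE 0.44, adjusted p = 3.55e-06), and LysE had 95.8, 38.95 and 109.8 CPM in the Sep2 mutant and 0.601, 1.09, 2.53 and 2.31 CPM in the control (log2 fold change 5.64, SE 0.44, adjusted p = 5.33e-06). The next gene of the cluster, LysC, annotated as a pseudogene, rose by 9.43 log2 units, with 8029, 3877 and 9614 reads in the Sep2 mutant libraries and 9, 1, 5 and 107 in the control libraries. Without control replicate 4 the log2 fold changes were 10.73 for LysD and 10.48 for LysC. Without control replicate 2 they were 9.01 and 8.73. LysP had 19.9, 12.7 and 30.3 CPM in the Sep2 mutant and 1.59, 1.98, 1.62 and 1.39 CPM in the control (log2 fold change 3.53, SE 0.39, adjusted p = 0.000102). LysS had 123, 102 and 66.6 CPM in the Sep2 mutant and 3.195, 4.48, 15.98 and 20.97 CPM in the control (log2 fold change 3.48, SE 0.54, adjusted p = 0.0015), and was not called with the replicate block over these 7 libraries alone (0.083), range 1.14e-05 to 0.083. In each of these 6 genes the 2 groups did not overlap, as in 564 of the 566 called genes. Replicate 2 had the lowest Sep2 mutant value of LysB, LysC, LysD, LysE and LysP.

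LysX, at the edge of the cluster, had 79.3, 129 and 52.1 CPM in the Sep2 mutant and 87.8, 92.5, 69.1 and 66.3 CPM in the control (log2 fold change 0.05, SE 0.41, adjusted p = 0.95). Thus 6 of 7 tested lysozyme genes were called higher (85.7%, against 3.26% of all genes), with a list median of 5.64. All 6 stayed called with each library left out. Because reads of such near-identical copies may be assigned to the wrong copy, the level of each is uncertain. The summed level of all 7 was 1787 to 3963 CPM in the Sep2 mutant, against 100.5 to 129.7 CPM in the control. The 6 genes and their neighbours CG33965 (log2 fold change 1.97) and CG33966 (log2 fold change 1.57) formed a run of 8 called genes on chromosome 3L, the longest such run. The rise was not particular to the Sep2 mutant. In the same fit all 6 were higher in the Sep5 mutant than in the control (adjusted p = 3.31e-05 to 0.00286), LysD by 7.24 log2 units. Between the Sep2 and the double mutant none of the 6 passed the test (adjusted p = 0.218 to 0.898). The summed level was 587 to 840 CPM in the Sep5 mutant and 3298 to 4209 CPM in the double mutant. LysB was also higher than in the Sep5 mutant (log2 difference 2.12, SE 0.47, adjusted p = 0.026), but did not pass that test without Sep2 mutant replicate 1 or 3 or Sep5 mutant replicate 1, 2 or 3 (0.0563 to 0.124), without a low-value filter (0.0829) or without the double mutant libraries (0.0651), range 0.00266 to 0.124. The differences of LysD (log2 difference 2.48, SE 0.89, adjusted p = 0.198) and LysC (log2 difference 2.56, SE 0.95, adjusted p = 0.215) from the Sep5 mutant did not pass the test. That of LysD passed without control replicate 4 (0.00715) or with sample weights (0.0201), range 0.00715 to 0.432, and that of LysC without control replicate 4 (0.0139), with 1 CPM added (0.0241), with sample weights (0.0165) or by voom (0.0311), range 0.0139 to 0.495.

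Beside the lysozymes, 9 genes had the largest increases among genes that averaged 2 log2 CPM or more over these 7 libraries, with no overlap of the groups. CG3819 had 152, 109 and 107 CPM in the Sep2 mutant and 2.21, 3.603, 4.805 and 1.43 CPM in the control (log2 fold change 5.43, SE 0.49, adjusted p = 1.29e-05). CG15534 had 25.98, 25.5 and 61.5 CPM in the Sep2 mutant and 1.01, 1.84, 4.602 and 0.953 CPM in the control (log2 fold change 4.27, SE 0.51, adjusted p = 0.000227). The salivary gland gene ng2 rose by 4.12 log2 units. The scavenger receptor gene ninaD, which serves carotenoid uptake, had 22.5, 20.96 and 43.01 CPM in the Sep2 mutant and 0.937, 1.65, 7.79 and 1.21 CPM in the control (log2 fold change 3.73, SE 0.64, adjusted p = 0.00315; 4.38 without control replicate 3). Control replicate 3 had the highest control value of CG3819, CG15534 and ninaD alike. Tpl94D, which encodes a transition protein of sperm chromatin, rose by 3.68 log2 units, and Pig1, another salivary gland gene, by 3.60 log2 units. The cuticle protein gene Cpr51A had 26.5, 35.7 and 36.8 CPM in the Sep2 mutant and 1.99, 3.44, 4.05 and 3.48 CPM in the control (log2 fold change 3.35, SE 0.29, adjusted p = 8.32e-06). It was also higher than in the Sep5 mutant (log2 difference 2.17, SE 0.31, adjusted p = 0.0013) and the double mutant (log2 difference 0.95, SE 0.29, adjusted p = 0.0238), the last not without Sep2 mutant replicate 2 or 3 or double mutant replicate 3 or 4 (0.0573 to 0.0882) or with the replicate block (0.0547), range 0.00816 to 0.0882. Cyp6a18 rose by 3.28 log2 units. CG3819, CG15534, ninaD, Tpl94D, Pig1 and Cyp6a18 were also higher in the Sep5 mutant than in the control (adjusted p = 0.000144 to 0.0286). None of them passed the test between the Sep2 and the Sep5 mutant (adjusted p = 0.325 to 0.952). IntS12, a subunit of the Integrator complex that processes small nuclear RNA, was among the most even, at 29.1, 24.7 and 27.2 CPM in the Sep2 mutant and 3.099, 2.59, 2.33 and 3.92 CPM in the control (log2 fold change 3.17, SE 0.26, adjusted p = 6.41e-06).

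**Figure D3:**
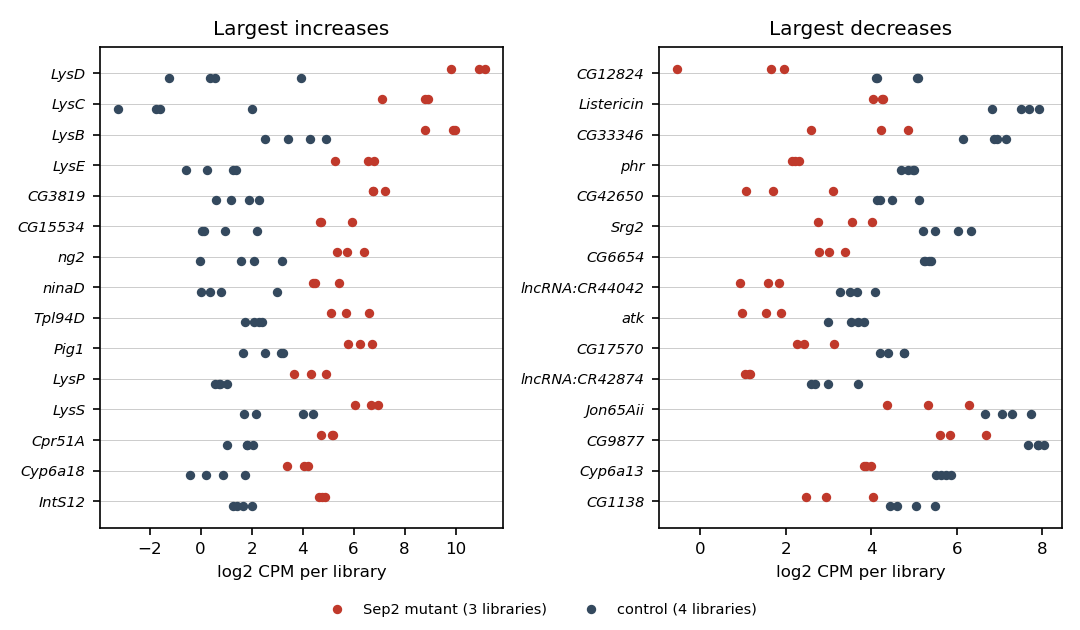
Level in each library, in log2 CPM, of the 15 genes with the largest increases (left) and the 15 with the largest decreases (right) among called genes that averaged 2 log2 CPM or more; red points are the 3 Sep2 mutant libraries and dark points, just under them, the 4 control libraries. Genes were also chosen for having no overlap between the groups, so its absence here is not a finding. The spread among control libraries of LysD and LysC is wide beside that of IntS12 or phr.

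Among called genes that averaged 2 log2 CPM or more, without overlap of the groups, the largest decreases were in genes of other kinds. CG12824 (chromosome 2R, 7790368 to 7791170) had 3.81, 3.04 and 0.608 CPM in the Sep2 mutant, against 17.1, 34.00, 33.2 and 17.3 CPM in the control (log2 fold change -3.57, SE 0.53, adjusted p = 0.00118); it was not called with the replicate block over these 7 libraries alone (0.0786), range 2.52e-05 to 0.0786. Its log2 fold change was -2.79 without Sep2 mutant replicate 3. Listericin, an antibacterial peptide of the immune response, had 16.3, 18.8 and 19.1 CPM in the Sep2 mutant and 241, 181, 113 and 206 CPM in the control (log2 fold change -3.30, SE 0.41, adjusted p = 0.000267). The DNA repair photolyase gene phr had 4.59, 4.33 and 4.87 CPM in the Sep2 mutant and 28.97, 32.1, 25.9 and 31.2 CPM in the control (log2 fold change -2.66, SE 0.19, adjusted p = 2.22e-06), with little spread in either group. CG33346 fell by 2.89 log2 units (by 2.24 without Sep2 mutant replicate 3), Srg2 by 2.32 log2 units and CG6654 by 2.25 log2 units. The gene atk, which encodes a leucine-rich repeat protein, fell by 2.04 log2 units, CG17570 by 1.93 log2 units, and the noncoding RNAs lncRNA:CR44042 and lncRNA:CR42874 by 2.18 log2 units and 1.88 log2 units. The cytochrome P450 gene Cyp6a13 had 14.1, 14.6 and 15.9 CPM in the Sep2 mutant and 57.6, 53.9, 45.4 and 49.4 CPM in the control (log2 fold change -1.79, SE 0.23, adjusted p = 0.000452). Listericin, phr, lncRNA:CR44042, atk and Cyp6a13 were also lower in the Sep5 mutant than in the control (adjusted p = 1.24e-06 to 0.0269), phr by 2.93 log2 units. None of them passed the test between the Sep2 and the Sep5 mutant (adjusted p = 0.453 to 0.953). CG12824, Srg2, CG6654 and CG17570 did pass it.

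The remaining large decreases were less firm. The gut protease gene Jon65Aii fell by 1.86 log2 units, though it was not called with the replicate block over these 7 libraries alone (0.165), range 1.80e-05 to 0.165. CG42650 fell by 2.53 log2 units (adjusted p = 0.00941), but did not pass the test without Sep2 mutant replicate 1 (0.0516) or 3 (0.0611), range 1.07e-05 to 0.0611. CG9877 fell by 1.84 log2 units (adjusted p = 0.0176), but did not pass the test without Sep2 mutant replicate 1 or 3 or control replicate 1 or 2 (0.0506 to 0.0938) or without a low-value filter (0.0571), range 3.73e-05 to 0.0938. CG1138 fell by 1.75 log2 units (adjusted p = 0.0207), but did not pass the test without Sep2 mutant replicate 1 (0.0911) or 3 (0.123) or control replicate 2 (0.0659) or without a low-value filter (0.0613), range 2.07e-05 to 0.123. In CG42650, CG9877 and CG1138 the Sep2 mutant library nearest to the controls was replicate 2.

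Called genes of detoxification were mostly higher, as were 72.4% of all called genes. Cytochrome P450s oxidize foreign compounds, hormones and fatty acids, glutathione S-transferases conjugate the products to glutathione, and UDP-glycosyltransferases to sugars. Of 77 tested P450 genes 11 were higher and 1 lower, with a median of 0.24, against 3.26% and 1.24% of all genes and a median of -0.02. Leaving out 1 library gave 6 to 14 higher, the fewest calls being without Sep2 mutant replicate 3. Cyp6a17, a P450 gene known for its part in temperature preference, had 25.2, 33.8 and 44.2 CPM in the Sep2 mutant and 0.144, 0.0267, 0.0506 and 1.100 CPM in the control (log2 fold change 7.09, SE 0.61, adjusted p = 8.32e-06), where control replicates 2 and 3 held 1 read each. Its reads summed to 2306 over the Sep2 mutant libraries and 38 over the control libraries. The log2 fold change was 7.85 without control replicate 4. Cyp12d1-p, linked to insecticide resistance, had 7.01, 5.47 and 7.91 CPM in the Sep2 mutant and 0.456, 1.01, 0.556 and 0.513 CPM in the control (log2 fold change 3.31, SE 0.26, adjusted p = 5.33e-06), and its near-identical copy Cyp12d1-d had no reads in any group, so the copies' shares are uncertain.

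Of 35 tested glutathione S-transferases 7 were higher (20%, against 3.26% of all genes) and none lower, and the list median was 0.63. With 1 library left out, 4 to 6 were higher, the fewest without Sep2 mutant replicate 1, 2 or 3 or control replicate 1. Mgstl, the microsomal enzyme, had 7.31, 7.19 and 7.82 CPM in the Sep2 mutant and 1.27, 1.81, 2.38 and 2.27 CPM in the control (log2 fold change 1.94, SE 0.30, adjusted p = 0.00142). GstZ1 rose by 1.45 log2 units. In the cluster of epsilon class genes on 2R, GstE1 had 22.8, 23.5 and 22.7 CPM in the Sep2 mutant and 3.65, 5.68, 3.74 and 6.16 CPM in the control (log2 fold change 2.28, SE 0.46, adjusted p = 0.00924), and GstE3 had 152, 168 and 137 CPM in the Sep2 mutant and 44.9, 40.4, 48.9 and 42.4 CPM in the control (log2 fold change 1.78, SE 0.32, adjusted p = 0.00436). GstE1, GstE2 and GstE3 were a run of 3 neighbouring called genes. GstE3 was higher in the Sep2 mutant than in the Sep5 mutant too (log2 difference 2.26, SE 0.34, adjusted p = 0.002). The summed level of the 36 glutathione S-transferase genes in the table was 1871 to 2058 CPM in the Sep2 mutant and 1182 to 1616 CPM in the control. Of 30 UDP-glycosyltransferases 3 were higher (10%, against 3.26% of all genes), Ugt49B1 (log2 fold change 2.29, SE 0.38, adjusted p = 0.00268), Ugt37A3 and Ugt303A1, with a median of 0.26. Ugt37A3 (log2 fold change 1.09, adjusted p = 0.0104) was not called without Sep2 mutant replicate 2 (0.0622), range 0.000591 to 0.0622. Ugt303A1 (log2 fold change 0.86, adjusted p = 0.0467) passed in 6 of 19 alternatives (range 0.0192 to 0.192), and not without Sep2 mutant replicate 2 or 3 or control replicate 1, 3 or 4 (0.0858 to 0.192) or with the replicate block.

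**Figure D4:**
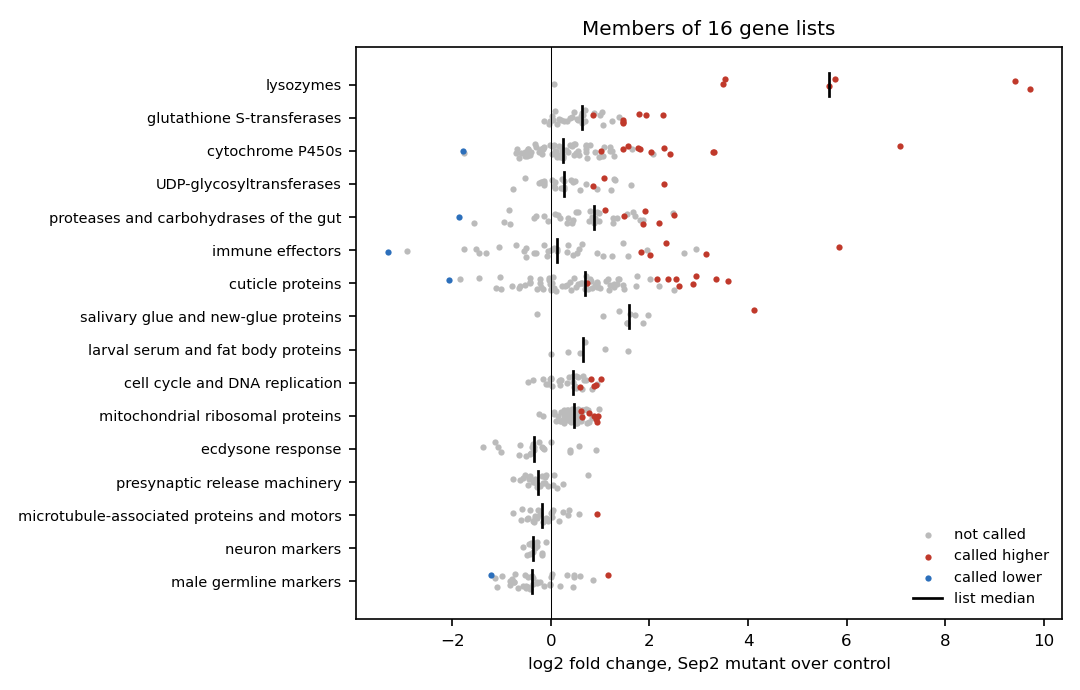
Log2 fold change of the Sep2 mutant over the control for every tested member of 16 gene lists; each point is a gene, red if called higher, blue if called lower and grey otherwise, and the black bar is the list median. The lysozymes have their median at 5.64, and the neuron markers all lie left of 0 with no member called.

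Of the enzymes made by the gut that were called, most were higher, as were 72.4% of all called genes. Of 44 tested proteases and carbohydrases of the gut 6 were higher and 1, Jon65Aii, lower, with a median of 0.87. The other 37 were not called, and the share called was 15.9%, against 4.50% of all genes. Leaving out 1 library gave 2 to 8 higher, the fewest calls being without Sep2 mutant replicate 3. The protease gene Jon99Cii had 3114, 2719 and 4287 CPM in the Sep2 mutant and 685, 643, 1192 and 514 CPM in the control (log2 fold change 2.199, SE 0.30, adjusted p = 0.000555). Its neighbour and close copy Jon99Ciii rose by 1.88 log2 units (adjusted p = 0.00828), but did not pass the test without Sep2 mutant replicate 3 (0.0541), range 0.000263 to 0.0541. Jon74E had 14.1, 13.8 and 15.4 CPM in the Sep2 mutant and 5.84, 3.68, 2.17 and 4.29 CPM in the control (log2 fold change 1.91, SE 0.30, adjusted p = 0.00158). Markers of the midgut itself were mixed. Of 12, 2 were higher and 1 lower (25% called), at a median of -0.18. Their summed level was 747 to 946 CPM in the Sep2 mutant and 720.3 to 777 CPM in the control. Npc1b, which serves sterol uptake in the midgut, had 20.5, 17.8 and 28.97 CPM in the Sep2 mutant and 5.72, 5.07, 6.52 and 5.57 CPM in the control (log2 fold change 1.93, SE 0.32, adjusted p = 0.00266). The sterol-binding gene Npc2d rose by 1.26 log2 units (adjusted p = 0.0107), but did not pass the test without Sep2 mutant replicate 3 (0.0611), range 0.000367 to 0.0611. The GATA factor gene srp, also expressed in fat body and hemocytes, had a log2 fold change of -0.64 (adjusted p = 0.045) and passed in 7 of 19 alternatives (range 0.0229 to 0.168), and not without Sep2 mutant replicate 2 or 3 or control replicate 1, 2 or 4 (0.0638 to 0.168) or with the replicate block.

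The lists of cuticle, salivary glue and larval serum proteins had positive medians, but not every salivary list did. The late salivary Eig71E puff genes had a median of -1.01 over 6 tested genes (-2.26 to 1.51), none of them called. Many were at few reads: over the 11 genes in the table the median member had 0.0321 CPM in the Sep2 mutant and 1.78 CPM in the control. Their summed level did not fall, at 1849 to 1892 CPM in the Sep2 mutant and 376 to 2073 CPM in the control, with overlap. With 1 library left out the median log2 fold change of the tested genes was -1.66 to -0.34. Of 77 tested cuticle proteins, which bind chitin in the exoskeleton, 9 were higher and 1 lower, or 12.99% called against 4.50% of all genes, with a median of 0.69. With 1 library left out 6 to 16 were higher, the fewest calls being without Sep2 mutant replicates 1 or 3 or control replicate 2. Cpr72Ec had 1.75, 1.36 and 1.92 CPM in the Sep2 mutant and 0.04805, 0.107, 0.152 and 0 CPM in the control (log2 fold change 3.59, SE 0.38, adjusted p = 8.39e-05), from 2, 4, 3 and 0 control reads, and its neighbours Cpr72Ea (log2 fold change 2.94) and Cpr72Eb rose as well, Cpr72Eb not with 1 CPM added (0.0919), range 2.44e-06 to 0.0919. Edg78E had 2.24, 3.25 and 2.62 CPM in the Sep2 mutant and 0.721, 0.4003, 0.303 and 0.257 CPM in the control (log2 fold change 2.54, SE 0.37, adjusted p = 0.00101). Of 10 salivary glue and new-glue genes only ng2 was called (log2 fold change 4.12, SE 0.71, adjusted p = 0.0035), at 40.4, 53.3 and 85.1 CPM in the Sep2 mutant and 0.913, 4.19, 9.05 and 2.896 CPM in the control. The share called was 10%, against 4.50% of all genes. The list median was 1.58, and in 6 of the 10 genes the Sep2 mutant libraries all lay above the control libraries (background 13.4%). The larval serum protein gene Lsp1gamma stood at a log2 fold change of 1.56 (adjusted p = 0.0508), and none of the 6 serum and fat body genes was called. Lsp1gamma passed without control replicate 3 (0.0186), with the plain variance model (0.05), with sample weights (0.0282), with these 7 libraries alone (0.0471), without the double mutant libraries (0.0461) or with the replicate block over these 7 libraries alone (0.00137), range 0.00137 to 0.202. With the block over these 7 libraries alone 4 of the 6 were called, all higher, among them apolpp (0.00688) and Lsp1alpha (0.00953). Their summed level was 33784 to 43818 CPM in the Sep2 mutant and 17713 to 30604 CPM in the control, without overlap, and the part of fat body or salivary gland content in the results given here was not tested.

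Immune genes moved in both directions. Of 39 tested immune effectors 5 were higher and 1, Listericin, lower, with a median of 0.13. The share called was 15.4%, against 4.50% of all genes. With 1 library left out 3 to 5 were higher, the fewest calls being without Sep2 mutant replicates 2 or 3 or control replicates 1 or 2. PGRP-SC2, an amidase that degrades peptidoglycan and dampens the response, had 369, 469 and 509 CPM in the Sep2 mutant and 62.8, 61.3, 126 and 127 CPM in the control (log2 fold change 2.33, SE 0.38, adjusted p = 0.00219). The antibacterial peptide gene AttA had 4.17, 13.3 and 7.16 CPM in the Sep2 mutant and 0.288, 0.641, 1.16 and 1.47 CPM in the control (log2 fold change 3.14, SE 0.53, adjusted p = 0.0028), and was higher than in the Sep5 mutant too (log2 difference 3.47, SE 0.57, adjusted p = 0.00368). The stress gene TotE spread widely, at 81.4, 18.7 and 2.48 CPM in the Sep2 mutant against 0.2402, 0.0801, 0.253 and 0.257 CPM in the control (log2 fold change 5.84, SE 0.79, adjusted p = 0.000553). Sep2 mutant replicate 1 carried the high TotE value. The log2 fold change was 4.66 without it and 7.15 without Sep2 mutant replicate 3. The call was lost with the replicate block over these 7 libraries alone (0.0751), range 1.43e-06 to 0.0751. Of 14 hemocyte markers only the phagocytosis receptor gene NimC1 was called, at 6.71, 4.04 and 8.38 CPM in the Sep2 mutant and 17.97, 20.5, 15.2 and 16.3 CPM in the control (log2 fold change -1.50, SE 0.32, adjusted p = 0.0138), but did not pass the test without Sep2 mutant replicate 2 (0.0761), range 0.000208 to 0.0761. The share called was 7.14%, against 4.50% of all genes. NimC1 had the lowest log2 fold change of the tested hemocyte markers, whose median was 0.28 and highest 1.61. The summed level of the 15 hemocyte markers in the table was 864 to 1708 CPM in the Sep2 mutant and 701 to 1091 CPM in the control.

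Of 33 cell cycle and DNA replication genes 5 were higher and none lower, or 15.15% called against 4.50% of all genes, with a median of 0.46. With the replicate block 2 were called. The mitotic kinase gene Cdk1 had 32.9, 45.2 and 30.7 CPM in the Sep2 mutant and 16.5, 18.7, 18.01 and 22.9 CPM in the control (log2 fold change 0.92, SE 0.17, adjusted p = 0.00693). PCNA, the sliding clamp of DNA polymerase, had 39.9, 40.6 and 45.2 CPM in the Sep2 mutant and 17.7, 16.4, 23.6 and 26.2 CPM in the control (log2 fold change 1.02, SE 0.20, adjusted p = 0.00756). The next by adjusted p, the replication inhibitor gene geminin and the origin recognition gene Orc5, were less firm. Their log2 fold changes were 0.60 (adjusted p = 0.024) and 0.81 (adjusted p = 0.034). The gene geminin passed in 12 of 19 alternatives (range 0.00198 to 0.105), and not without Sep2 mutant replicate 2 or 3 or control replicate 1 or 2 (0.0604 to 0.105) or with the replicate block. Orc5 passed in 9 of 19 alternatives (range 0.00039 to 0.156), and not without Sep2 mutant replicate 1, 2 or 3 or control replicate 2 or 3 (0.0732 to 0.156) or with the replicate block. With 1 library left out 2 to 5 were called, the fewest without Sep2 mutant replicates 2 or 3 or control replicate 2. Cdk1 was also higher than in the double mutant (log2 difference 1.58, SE 0.17, adjusted p = 5.99e-05) and the Sep5 mutant (log2 difference 0.89, SE 0.19, adjusted p = 0.0199), the last not without Sep2 mutant replicate 1 or 2 or Sep5 mutant replicate 1 or 3 (0.0524 to 0.0989), range 0.00199 to 0.0989.

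Proteins of the mitochondrial ribosome had a median of 0.46 over 72 genes, of which 7 were called higher and none lower (9.72%, against 4.50% of all genes), and in 42 of the 72 the Sep2 mutant libraries all lay above the control libraries (background 13.4%). The calls were weak: none of the 72 was called without Sep2 mutant replicates 1 or 2 or control replicate 1, and 4 with the replicate block. The lowest adjusted p was that of mRpS25, at 12.7, 13.6 and 12.1 CPM in the Sep2 mutant and 5.45, 8.27, 8.24 and 6.305 CPM in the control (log2 fold change 0.87, SE 0.19, adjusted p = 0.0178), but it was not called without Sep2 mutant replicate 1, 2 or 3 or control replicate 1 (0.0517 to 0.0744), range 0.000719 to 0.0744. The summed level of the list was 928 to 1060.3 CPM in the Sep2 mutant and 643 to 821 CPM in the control. Nuclear-encoded subunits of the respiratory complexes had a median of 0.33 over 85 genes, with 2 higher, UQCR-11 (log2 fold change 0.90) and ND-B17.2 (log2 fold change 0.69), and none without Sep2 mutant replicate 2 or control replicates 1 or 4. Cytosolic ribosomal proteins had a median of -0.0031 over 91 genes. RpLP0-like (log2 fold change 0.80, adjusted p = 0.00941) was their single call and was lost without Sep2 mutant replicate 3 (0.0517), range 0.000706 to 0.0517. None of 14 transcripts of the mitochondrial genome and none of 46 proteasome subunits was called.

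Genes of the nervous system and the cytoskeleton gave few calls, but only 4.50% of all genes were called. Short lists hold few calls at that share. The share called was 4.17% of postsynaptic, 3.57% of microtubule-associated and 4.35% of sarcomere genes, near that of all genes. None of 13 neuron markers was called, and all 13 had negative log2 fold changes, between -0.56 and -0.10, with a median of -0.37. In 5 of the 13 every Sep2 mutant library lay under every control library, against 7.49% of all genes. Their summed level was 285 to 368 CPM in the Sep2 mutant and 351 to 528 CPM in the control. The potassium channel gene Sh had 51.7, 45.9 and 53.9 CPM in the Sep2 mutant and 65.2, 63.2, 60.9 and 80.5 CPM in the control (log2 fold change -0.41, SE 0.15, adjusted p = 0.125), and the active zone gene brp 44.4, 30.8 and 43.1 CPM in the Sep2 mutant and 90.8, 46.6, 50.4 and 51.4 CPM in the control (log2 fold change -0.56, SE 0.22, adjusted p = 0.167). Sh passed with sample weights (0.0166), range 0.0166 to 0.297, and brp with the replicate block over these 7 libraries alone (0.0369), range 0.0369 to 0.411. None of 25 genes of presynaptic release was called (median -0.26). Of 24 postsynaptic genes only Syt4, which acts in retrograde signalling from muscle, was called (log2 fold change 0.82, adjusted p = 0.0369), and passed in 10 of 19 alternatives (range 3.73e-05 to 0.152), and not without Sep2 mutant replicate 1 or 3 or control replicate 1, 2 or 3 (0.0569 to 0.152). None of 7 tubulins, 24 actin regulators or 19 cytokinesis genes was called, at medians of 0.26, -0.22 and -0.14. Of 28 microtubule-associated proteins and motors ringer, which encodes a tubulin polymerization-promoting protein, had 35.6, 39.2 and 43.9 CPM in the Sep2 mutant and 15.8, 22.05, 25.5 and 20.2 CPM in the control (log2 fold change 0.94, SE 0.18, adjusted p = 0.00863), but did not pass the test without Sep2 mutant replicate 3 (0.0525), range 0.000807 to 0.0525. It was lower than in the double mutant (log2 difference -1.10, SE 0.18, adjusted p = 0.000962). Of 23 sarcomere genes TpnC41C, a troponin C, was called, at 2.36, 2.72 and 3.18 CPM in the Sep2 mutant and 0.625, 0.801, 0.759 and 0.7698 CPM in the control (log2 fold change 1.79, SE 0.30, adjusted p = 0.0027). It was higher than in the Sep5 mutant too (log2 difference 2.03, SE 0.32, adjusted p = 0.00286). Glial markers gave 0 calls of 13, imaginal disc markers 0 of 16, tracheal markers 0 of 8 and Malpighian tubule markers 0 of 10.

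Among endocrine genes, those for the insulin-like peptides Ilp3 and Ilp2, which the brain secretes, were called higher. Ilp3 had 4.41, 6.47 and 4.35 CPM in the Sep2 mutant and 1.54, 1.601, 1.11 and 1.98 CPM in the control (log2 fold change 1.66, SE 0.25, adjusted p = 0.0014). Ilp2 had 3.202, 4.61 and 4.91 CPM in the Sep2 mutant and 1.99, 1.39, 0.657 and 1.36 CPM in the control (log2 fold change 1.67, SE 0.36, adjusted p = 0.0156), but did not pass the test without Sep2 mutant replicate 2 (0.0669) or 3 (0.0786), range 0.000328 to 0.0786. They were the 2 calls among 17 insulin and TOR genes (11.8%, against 4.50% of all genes), whose median was -0.16. Of 16 genes of ecdysteroid synthesis and turnover only nvd, the first enzyme of the pathway, was called (6.25%, against 4.50% of all genes). It had 2.66, 4.47 and 5.102 CPM in the Sep2 mutant and 1.15, 1.12, 1.06 and 1.69 CPM in the control (log2 fold change 1.61, SE 0.36, adjusted p = 0.0186), but did not pass the test without Sep2 mutant replicate 2 or 3 or control replicate 1 or 2 (0.0538 to 0.104), range 0.0011 to 0.104. None of 22 genes that respond to ecdysone was called (median -0.35), and Eip93F stood at a log2 fold change of -1.37 (adjusted p = 0.194). Eip93F passed with the replicate block over these 7 libraries alone (0.00359), range 0.00359 to 0.407. There 4 of the 22 were called, 2 higher and 2 lower, among them ImpL1 (0.0412).

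The remaining lists described here gave 1 to 3 calls each. The share called was 5.41% of male germline markers and 5.88% of serpins, near the 4.50% of all genes. It was 12.5% of germ cell markers and 13.3% of eye pigment genes. Of mucin and peritrophic genes it was 21.4%, and of alkaline phosphatases 30%. Of 37 male germline markers achi was lower (log2 fold change -1.22, SE 0.19, adjusted p = 0.00168) and vis higher (log2 fold change 1.16, SE 0.22, adjusted p = 0.00625). They are near-identical neighbours and can share reads. The level of achi was 9.42, 14.4 and 9.501 CPM in the Sep2 mutant and 20.9, 29.97, 25.5 and 26.5 CPM in the control, and that of vis 32.1, 37.3 and 25.5 CPM in the Sep2 mutant and 12.04, 17.9, 13.9 and 12.7 CPM in the control. The summed level of the 39 male germline markers in the table was 2296 to 4379.6 CPM in the Sep2 mutant and 3148 to 6979.9 CPM in the control. Of 15 eye pigment genes 2 were higher, at a list median of 0.04 that was -0.01 with median centring. The gene pr, for an enzyme of pteridine synthesis, had 77.8, 81.9 and 84.5 CPM in the Sep2 mutant and 25.5, 34.9, 42.1 and 47.3 CPM in the control (log2 fold change 1.15, SE 0.18, adjusted p = 0.00199). The serpin gene Spn42De had 0.785, 0.322 and 0.374 CPM in the Sep2 mutant and 2.64, 2.83, 4.05 and 2.86 CPM in the control (log2 fold change -2.53, SE 0.33, adjusted p = 0.000407), lower than in the Sep5 mutant as well (log2 difference -3.57, SE 0.35, adjusted p = 4.78e-05). Of 26 odorant-binding and related genes 2 were higher (7.69% called, against 4.50% of all genes). Obp56b rose by 2.09 log2 units (adjusted p = 0.000797). Obp58c (log2 fold change 1.40, adjusted p = 0.0464) passed in 4 of 19 alternatives (range 0.00639 to 0.194), and not without Sep2 mutant replicate 1, 2 or 3 or control replicate 1, 2, 3 or 4 (0.0544 to 0.194) or with the replicate block. Of 8 germ cell markers the Piwi gene aub was called (log2 fold change 1.25, adjusted p = 0.00941), but did not pass the test without Sep2 mutant replicate 2 (0.0587), range 0.000119 to 0.0587. Of 14 mucin and peritrophic genes 1 was higher and 2 lower. Muc68D fell, with 0, 1 and 9 reads in the Sep2 mutant libraries and 80, 111, 33 and 45 in the control libraries (log2 fold change -3.64, adjusted p = 0.00613; -4.43 without Sep2 mutant replicate 3). Of 10 alkaline phosphatases Alp13 (log2 fold change 2.08), Alp10 (log2 fold change 1.48) and Alp9 (log2 fold change 1.42) were called higher, and none was without Sep2 mutant replicates 1 or 3 or control replicates 1 or 4.

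The replicate block over these 7 libraries alone, which called 21.8% of all genes, raised the count of most lists. Control replicate 4 carries no weight in that fit, and the spread is estimated from few values, so these counts are descriptions. It called 32 of 77 P450s (26 higher, 6 lower), 19 of 35 glutathione S-transferases (all higher) and 22 of 44 gut proteases and carbohydrases (19 higher, 3 lower). It called 28 of 77 cuticle proteins (22 higher, 6 lower) and 9 of 10 glue and new-glue genes (all higher). Among genes of growth and mitochondria it called 12 of 33 cell cycle genes (11 higher, 1 lower) and 18 of 72 mitochondrial ribosomal proteins (all higher). It called 12 of 85 respiratory subunits (10 higher, 2 lower) and 11 of 46 proteasome subunits (5 higher, 6 lower). Of the lists of nerve and cytoskeleton it called 2 of 13 neuron markers (both lower), 4 of 25 presynaptic and 4 of 24 postsynaptic genes. It also called 3 of 7 tubulin, 4 of 24 actin regulator, 2 of 19 cytokinesis and 6 of 28 microtubule-associated genes. It called 19 of 37 male germline markers (1 higher, 18 lower), and 5 of 7 lysozymes.

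Genes close to Septin2 on 3R were read separately. Within 1 Mb of Septin2, 18 of 206 tested genes were called (8.74%, against 4.50% of all genes), 13 higher and 5 lower, and 17 of them changed at least 2-fold. Within 0.5 Mb it was 10 of 96 (10.4%). From 1 to 5 Mb on the same arm 41 of 925 were called (4.43%) and at 5 Mb or more 100 of 1967 (5.08%). With the replicate block over these 7 libraries alone 45 of the 206 were called (21.8%, as of all genes), and with sample weights 68 (33.0%, against 32.5% of all genes). In the other alternatives the number was 11 to 23, with the lowest under the stricter filter. These shares are descriptions, and the difference between them was not tested.

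The metallothionein genes MtnB and MtnC, which bind copper and other metals, lay within 0.5 Mb of Septin2. MtnB had 11.4, 30.8 and 18.5 CPM in the Sep2 mutant and 1.56, 2.94, 2.07 and 2.16 CPM in the control (log2 fold change 3.08, SE 0.36, adjusted p = 0.000207). MtnC had 5.32, 9.19 and 3.93 CPM in the Sep2 mutant and 0.264, 0.374, 0.253 and 0.147 CPM in the control (log2 fold change 4.15, SE 0.47, adjusted p = 0.000152), and both were higher than in the Sep5 mutant (MtnB log2 difference 2.01, SE 0.39, adjusted p = 0.0119; MtnC log2 difference 2.63, SE 0.51, adjusted p = 0.0116). Against the Sep5 mutant, MtnB did not pass without Sep2 mutant replicate 2 (0.0654) or Sep5 mutant replicate 1 (0.0538), range 0.00664 to 0.0654, and MtnC did not pass without Sep2 mutant replicate 2 (0.0679) or Sep5 mutant replicate 3 (0.0665), range 0.000875 to 0.0679. In both genes Sep2 mutant replicate 2 was the highest library. CG31219 (chromosome 3R, 19651018 to 19652430) had 119, 183 and 188 reads in the Sep2 mutant libraries, against 5, 7, 1 and 3 reads in the control libraries (log2 fold change 5.31, SE 0.34, adjusted p = 1.63e-06). CG4783 had 10.6, 12.3 and 11.4 CPM in the Sep2 mutant and 0.625, 0.827, 1.16 and 0.843 CPM in the control (log2 fold change 3.64, SE 0.26, adjusted p = 2.19e-06). The ABC transporter gene Mrp5 had 26.3, 26.8 and 24.99 CPM in the Sep2 mutant and 58.7, 66.8, 73.9 and 50.5 CPM in the control (log2 fold change -1.25, SE 0.17, adjusted p = 0.000553). CG7333 fell by 2.95 log2 units, and its neighbour CG17751 rose by 2.59 log2 units. These 7 genes also differed from the Sep5 mutant. Of these, CG17751 passed in 7 of 20 alternatives (range 0.0136 to 0.158), and not without Sep2 mutant replicate 1, 2 or 3 or Sep5 mutant replicate 2 or 3 or control replicate 1, 2 or 4 (0.0547 to 0.158) or with the replicate block.

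The other 11 called genes near Septin2 did not pass the test against the Sep5 mutant. CG5810 had 27.1, 26.9 and 56.1 CPM in the Sep2 mutant and 2.62, 6.35, 7.33 and 4.25 CPM in the control (log2 fold change 2.83, SE 0.35, adjusted p = 0.000257). CG4367 rose by 2.27 log2 units and CG17272 by 0.90 log2 units, and CG31199 and lncRNA:CR46043 fell by 1.82 log2 units and 2.98 log2 units. The noncoding RNA lncRNA:CR42836 had 230 reads over the Sep2 mutant libraries and 3 over the control libraries, a ratio of rates of 146.8 (95% exact counting interval 49.6 to 717). The noncoding RNA lncRNA:CR43453 had 8, 31 and 13 reads in the Sep2 mutant libraries and none in any control library, at least 33.2-fold higher against a floor of 3 reads over the control group, and did not pass the test with 1 CPM added (0.0727), range 3.13e-05 to 0.0727. CG15696 rose by 2.59 log2 units (adjusted p = 0.00922), but did not pass the test without Sep2 mutant replicate 1 (0.0514) or 3 (0.0564) or with 1 CPM added (0.112), range 4.74e-05 to 0.112. CG17752 rose by 1.67 log2 units (adjusted p = 0.045), and passed in 8 of 19 alternatives (range 0.000683 to 0.178), and not without Sep2 mutant replicate 1, 2 or 3 or control replicate 1, 2 or 4 (0.0585 to 0.178) or with the replicate block. CG4362 rose by 1.38 log2 units (adjusted p = 0.048), and passed in 7 of 19 alternatives (range 0.00176 to 0.179), and not without Sep2 mutant replicate 1, 2 or 3 or control replicate 1, 2 or 4 (0.0914 to 0.179) or with the replicate block. The noncoding RNA lncRNA:CR44048 fell by 2.09 log2 units (by 2.73 without Sep2 mutant replicate 2; adjusted p = 0.0389), but did not pass the test without Sep2 mutant replicate 1 or 3 or control replicate 1, 2 or 3 (0.0662 to 0.173) or without a low-value filter (0.0779), range 0.000138 to 0.173. The pigmentation gene e, within 1 Mb of Septin2, was among the most uneven genes, at 283, 7.58 and 1.92 CPM in the Sep2 mutant and 1689, 665, 119 and 118 CPM in the control (log2 fold change -4.44, SE 2.12, adjusted p = 0.245), and the groups overlapped.

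**Figure D5:**
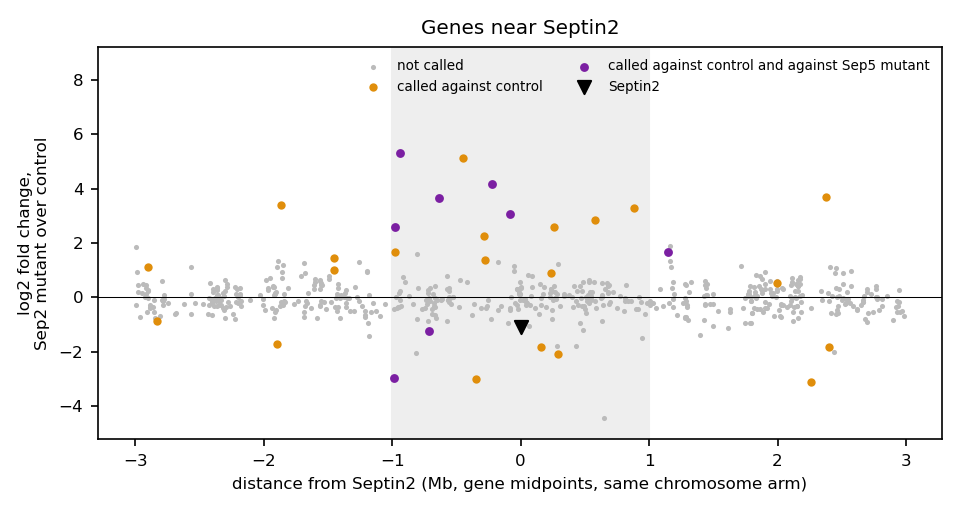
Log2 fold change of the Sep2 mutant over the control for genes within 3 Mb of Septin2, against the distance between gene midpoints in Mb; orange genes were called against the control, purple genes against both the control and the Sep5 mutant, grey genes were not called, the triangle is Septin2 and shading marks 1 Mb on each side. The 18 called genes in the shaded part lie on both sides of Septin2 and in both directions.

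Some called genes were neighbours elsewhere too. Of 562 called genes on chromosome arms, 93 (16.5%) lay next to a gene called in the same direction in the order of tested genes. The share that unrelated positions would give was not computed, so the 16.5% is a description. There were 4 runs of 3 or more. Beside the lysozymes and the GstE genes these were 5 genes on 2L from CG33306 (log2 fold change 1.49) to CG7968 (log2 fold change 1.52), and 5 on 3L with Tcs3, ringer and the Cpr72E genes. CG33306 passed in 12 of 19 alternatives (range 0.00163 to 0.161), and not without Sep2 mutant replicate 1, 2 or 3 or control replicate 1, 2 or 4 (0.0576 to 0.161). CG7968 passed in 8 of 19 alternatives (range 0.00348 to 0.181), and not without Sep2 mutant replicate 1, 2 or 3 or control replicate 1, 2 or 4 (0.0724 to 0.181).

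Changes in the Sep2 mutant were then set against the other mutants. Against the Sep5 mutant 306 genes (2.43%) were called, 142 higher and 164 lower, and against the double mutant 3640 (28.9%). Leaving out Sep2 mutant replicates 1, 2 and 3 gave 155, 177 and 198 calls against the Sep5 mutant, and leaving out Sep5 mutant replicates 1 and 3 gave 200 and 157. Against the double mutant, 2113 and 2017 were called without Sep2 mutant replicates 1 and 2. Of the 566 genes called against the control, 120 also differed between the Sep2 and the Sep5 mutant, 240 between the Sep2 and the double mutant and 81 in both tests. In 67 genes, 38 higher and 29 lower, the Sep2 mutant differed in the same direction from the control, the Sep5 mutant and the double mutant. These comparisons share libraries, so the counts are not independent of each other.

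Among genes called between the single mutants that averaged 2 log2 CPM or more over those 6 libraries, without overlap, some of the largest differences were in genes not called in the Sep2 mutant against the control. The trypsin gene epsilonTry had 1190.5, 1201 and 1726 CPM in the Sep2 mutant and 838, 389, 669 and 375 CPM in the control (log2 fold change 1.34, SE 0.36, adjusted p = 0.0508), and was higher than in the Sep5 mutant, where it averaged 0.295 CPM (log2 difference 11.98, SE 0.39, adjusted p = 2.05e-10). The same held for the alkaline phosphatase gene Alp7 (log2 fold change 1.34, SE 0.67, adjusted p = 0.261 against the control; log2 difference 9.43, SE 0.72, adjusted p = 3.80e-06 against the Sep5 mutant) and the trypsin gene betaTry (log2 fold change 0.88, SE 0.35, adjusted p = 0.165 against the control; log2 difference 5.76, SE 0.37, adjusted p = 9.72e-07 against the Sep5 mutant). Of genes called against both, CG11893 had 22.9, 27.5 and 46.99 CPM in the Sep2 mutant and 0.408, 0.801, 1.01 and 0.586 CPM in the control (log2 fold change 5.37, SE 0.33, adjusted p = 1.63e-06), and was higher than in the Sep5 mutant (log2 difference 4.95, SE 0.36, adjusted p = 2.78e-06). IntS12 was higher than in the Sep5 mutant (log2 difference 3.13, SE 0.28, adjusted p = 2.03e-05) and lower than in the double mutant (log2 difference -1.23, SE 0.26, adjusted p = 0.00398). CG12824 was lower than in the Sep5 mutant (log2 difference -4.17, SE 0.57, adjusted p = 0.001) and the double mutant (log2 difference -4.43, SE 0.53, adjusted p = 0.000104). CG4716 (log2 difference -3.84, SE 0.75, adjusted p = 0.0119), Cyp6t3 (log2 difference -3.16, SE 0.24, adjusted p = 3.80e-06), pre-rRNA:CR45845 (log2 difference -2.99, SE 0.59, adjusted p = 0.0132) and CG18417 (log2 difference -2.98, SE 0.66, adjusted p = 0.0284) were also lower than in the Sep5 mutant, and none of these 4 was called against the control. CG4716 did not pass without Sep2 mutant replicate 1 (0.0588) or 2 (0.0667) or Sep5 mutant replicate 3 (0.069) or without a low-value filter (0.0564), range 8.90e-05 to 0.069. The precursor pre-rRNA:CR45845 did not pass without Sep2 mutant replicate 2 (0.0687) or Sep5 mutant replicate 3 (0.0587) or without a low-value filter (0.0518), range 0.000701 to 0.0687. CG18417 did not pass without Sep2 mutant replicate 1 (0.135) or 3 (0.105) or Sep5 mutant replicate 3 (0.154), without a low-value filter (0.0916) or without the double mutant libraries (0.0748), range 0.000274 to 0.154.

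Of genes in which the Sep2 mutant differed from all other groups, 2 were chosen after their values were seen, for their size. CG31683 had 17.5, 20.1 and 18.2 CPM in the Sep2 mutant and 0.505, 0.427, 0.202 and 0.2199 CPM in the control (log2 fold change 5.55, SE 0.39, adjusted p = 2.19e-06), and was higher than in the Sep5 mutant (log2 difference 4.79, SE 0.41, adjusted p = 1.26e-05) and the double mutant (log2 difference 3.43, SE 0.39, adjusted p = 6.66e-05). CG33223 had 3, 2 and 2 reads in the Sep2 mutant libraries and 344, 595, 238 and 209 in the control libraries (log2 fold change -5.80, SE 0.41, adjusted p = 2.19e-06), and was lower than in the Sep5 mutant (log2 difference -5.59, SE 0.43, adjusted p = 4.33e-06) and the double mutant (log2 difference -4.11, SE 0.41, adjusted p = 3.22e-05).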

How the data were processed

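Whole larvae of the third instar were sequenced as polyadenylated RNA, per the labels' protocols, in 14 libraries of 4 genotypes, and 7 of them form the comparison described here. The genome builds dm6 and BDGP6 are named in the submitters' processing notes, as are edgeR 3.40, the aligner STAR 2.7.11b, and for reads cutadapt 3.5 and FastQC 0.11.9. The deposited values are log2 CPM per gene, scaled by trimmed mean of M-values per the series' design text. The lowest value in the table, -3.65 log2 CPM, equals 0.0797 CPM and stands for 0 reads. Removing the added count (2.00 on average) and the scaling gave reads that were whole within 0.01 for 100% of 250166 values. The CPM printed are these reads over the scaled library size.

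Genotype means were compared with limma 3.58.1 (R 4.3.3; trend and robust shrinkage) on the deposited log2 CPM, with all 14 libraries in the fit, no covariate, Benjamini-Hochberg adjustment over 12586 genes and a threshold of 0.05. A log2 fold change is on the scale of log2 of CPM with the added count, and so understates changes of low genes. On simulated counts for this comparison (12388 genes, 100 changed per size, dispersion 0.05) the fit recovered 65% of 2-fold and 100% of 4-fold changes and called 10 unchanged genes. The simulation gave every gene the same dispersion, with no replicate effect and no change in the other mutants. Alternatives changed the filter (none, or 1 log2 CPM in 7 libraries), the added value (1 CPM), the normalization (quantile, median centring), the variance model (no trend, sample weights, voom), the libraries (7 alone, no double mutant, each left out) and a replicate block.

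Replicate numbers, which the labels give, were taken to pair libraries in the replicate block alone. The main fit has no such block, so its p-values do not use this pairing. Deviations of same-numbered Sep2 mutant and control libraries from their group means correlated at 0.305, 0.452 and 0.166. Those of differently numbered libraries correlated at -0.351 to 0.0846. Control replicate 4 had no Sep2 mutant partner. In the block over the 7 libraries alone it was therefore fitted exactly and did not enter the difference. Pairing of the Sep5 and double mutant libraries was not read. Libraries within a group differed far beyond sampling noise. Positions were taken from Ensembl release 115 for 17790 of 17869 genes. The members, the 53 gene lists and the tests were chosen with earlier results of these data known. The genes named are the 5 septins and w; of the called genes averaging 2 log2 CPM or more over the groups compared, without overlap of the groups, the 15 that rose and the 15 that fell most; up to 4 called members of each list by adjusted p, or up to 2 members as values; called genes within 1 Mb of Septin2; and, by the same limits, the 5 largest in each direction against the Sep5 mutant. Intervals and floors cover counting error only. Tables and figures were made with Python 3.11.15, pandas 2.3.3, SciPy 1.17.1 and matplotlib 3.10.9.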

Additional observations from a re-analysis of the deposited data

Results flagged for a closer look

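The 4 control libraries were tested in 159 groups of values, 155 for named genes and 4 for library measures such as depth. In 9 of the 159, all named genes, 1 library stood apart from the other 3. Its gap to the nearest took more of the range than Dixon's 95% value for 4 libraries allows. Chance gives about 1 in 20. Groups of 3 were not tested. Control replicate 4 stood apart in Smox (7.59 log2 CPM), a transcription factor of activin signalling, in the caspase gene Dcp-1 (4.21), in fs(1)K10 (5.18), which acts in oocyte polarity, and in the exchanger gene Calx (5.16). Control replicate 1 stood apart in mof (4.54 log2 CPM), a histone acetyltransferase of dosage compensation, and in the active zone gene brp (6.51). Control replicate 2 stood apart in TotE (-2.65 log2 CPM) and Ugt303A1 (3.85), and control replicate 3 in the glycolytic gene Gapdh2 (9.65). Of these genes TotE and Ugt303A1 were called in the Sep2 mutant.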

How the results depend on the processing

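Of 566 genes called in the Sep2 mutant against the control, 225 were called in all 19 alternatives, 444 with the replicate block over all 14 libraries and 459 with the 7 libraries alone. The block gave 528 calls, and over these 7 libraries alone 2742. A test on the recovered reads (voom) gave 642. Sample weights gave 4091, and 1844 against the Sep5 mutant (306 as reported) and 6807 against the double mutant (3640 as reported). The stricter filter gave 192 calls against the Sep5 mutant. With each library left out in turn the counts were 312 to 579 against the control, 155 to 330 against the Sep5 mutant and 2017 to 3793 against the double mutant. Septin2 in Sep2 mutant versus control libraries passed the threshold with sample weights (log2 fold change -1.15), with the 7 libraries alone (-1.09), without the double mutant libraries (-1.09) and with the block over the 7 libraries (-0.996), and ranged over -1.20 to -0.98 with a library left out. Leaving out each library of the other mutants, a choice made after seeing the data, gave 157 to 290 calls against the Sep5 mutant and 2876 to 3410 against the double mutant. The cause of these differences was not tested. Over all pairs of a named gene and an alternative, 213 lost a call, 82 gained it, 2614 did neither and none reversed a called direction. No scaling moved the median of all genes by more than 0.1. With 3 and 4 libraries a group, 65% of simulated 2-fold changes were recovered. Every simulated gene had the same dispersion and no replicate effect, so this share does not measure the power in these libraries. A gene not called may still differ. Depth limits genes of few reads, such as Cpr72Ec.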
